A study of Mus musculus with 168 samples.

Results

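Mt1, Mt2 and Mt3 encode mouse metallothioneins, and their transcripts were followed in 7 brain regions through a preconditioning hypoxia and the re-oxygenation after it. They are 3 of the 18193 genes with a probe set of their own on the array, and all probe sets annotated to Mt1, Mt2 or Mt3 and to no other gene were taken, which gave 4 of 45101. Mt1 had a bright probe set, 1422557_s_at, and a dim one, 1451612_at. Mt2 had 1428942_at and Mt3 had 1420575_at. Male C57BL/6 mice aged 8 to 9 weeks breathed 8% O2, and brains were taken after 1 or 3 h of hypoxia (H1 and H3) or after 3 h of hypoxia followed by 1, 3, 6, 12 or 24 h of re-oxygenation in room air (R1 to R24). Group C, labelled as 0 h, held sham-treated mice that went through the chamber and the recovery without the low oxygen. Cerebellum, pons and medulla, midbrain, thalamus, striatum, hippocampus and cortex were each hybridised with 3 replicates per time group, 56 groups in all. The arrays came from 24 mice, 3 per time group, so arrays of different regions share mice, but the labels do not say which arrays belong to 1 mouse. No allele or drug was involved, and the hour of the day at which each group was killed is not given in the sources used here, so time after hypoxia and hour of the day cannot be told apart in any change described here.

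Metallothioneins are small, cysteine-rich proteins that bind zinc and copper. Mt1 and Mt2 are present in most tissues, in brain mainly in astrocytes, and their transcription is raised by zinc through the metal-responsive factor MTF1, by glucocorticoids and by inflammatory signals, while Mt3 is a brain-enriched member that is much less inducible and was first described as a growth inhibitory factor of neurons. In this mouse cluster the order along chromosome 8 in the RefSeq annotation of GRCm38.p6 was Mt4, Mt3, the long non-coding RNA Gm39227, Mt2 and Mt1. Mt4, a metallothionein of stratified epithelia, is no member here; its probe set was below an intensity of 16 on 154 of the arrays.

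The promoter windows of the 3 genes are shown because zinc, hypoxia and glucocorticoid signals all act on this family through short DNA motifs, not all of which need lie in these windows. Each window runs from 250 bases before to 50 bases after 1 RefSeq start site per gene, was taken from RefSeq for build GRCm38.p6, and lies on the + strand. Capitals mark the core of the metal response element, TGCACNC or TGCGCNC on either strand.
Mt1, chr8:94178839-94179138: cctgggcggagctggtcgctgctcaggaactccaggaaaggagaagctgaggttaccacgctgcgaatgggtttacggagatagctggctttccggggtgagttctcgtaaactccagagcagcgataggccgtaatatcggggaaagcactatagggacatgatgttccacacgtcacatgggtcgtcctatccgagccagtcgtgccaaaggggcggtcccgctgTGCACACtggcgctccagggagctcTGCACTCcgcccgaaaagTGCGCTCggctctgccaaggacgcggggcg
Mt2, chr8:94172368-94172667: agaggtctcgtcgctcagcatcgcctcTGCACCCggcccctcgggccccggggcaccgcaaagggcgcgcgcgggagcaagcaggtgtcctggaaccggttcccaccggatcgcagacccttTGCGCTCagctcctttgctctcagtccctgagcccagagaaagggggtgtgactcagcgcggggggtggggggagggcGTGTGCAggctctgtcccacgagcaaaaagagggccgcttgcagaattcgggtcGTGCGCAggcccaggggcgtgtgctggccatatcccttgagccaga
Mt3, chr8:94152357-94152656: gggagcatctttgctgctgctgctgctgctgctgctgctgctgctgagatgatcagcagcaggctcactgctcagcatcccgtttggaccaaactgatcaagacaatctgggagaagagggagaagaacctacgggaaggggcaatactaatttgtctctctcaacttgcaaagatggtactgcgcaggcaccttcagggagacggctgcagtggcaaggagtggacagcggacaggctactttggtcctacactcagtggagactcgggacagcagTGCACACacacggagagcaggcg
The window of Mt2 held 4 metal response element cores, that of Mt1 held 3 and that of Mt3 held 1. Of 32851 promoter windows of the same length, 25.7% held at least 1 core, 1.97% held 3 or more and 0.517% held 4 or more. The hypoxia response element core, ACGTG or GCGTG on either strand, matched 2 times in Mt1, 2 times in Mt2 and not in Mt3, and 43.8% of all windows held it. The glucocorticoid response element core AGAACA, found in 19% of windows, matched in none of the 3. The antioxidant response element core TGACNNNGC matched once in Mt2, against 12.4% of windows, and the GC box GGGCGG matched 3 times in Mt1 alone, against 35.7%. A GC box of Mt1 and a hypoxia core of Mt2 each share bases with a metal response element core. These are letter matches in 1 annotated window per gene, not measured binding. The start site annotated for Mt1 may lie upstream of the one mostly used, so its window may leave out cores nearer to that start, and its count holds for this window alone.

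The values are linear signal intensities, and changes are differences of log2(intensity + 16), which understates the change of dim probe sets. On this array 199 of 45037 tested probe sets were brighter on average than the bright Mt1 probe set, whose intensity ran from 1705 to 3666. Mt2 ran from 852.3 to 3310 and Mt3 from 1008 to 3364, all 3 of them at or above the 99th percentile of mean signal. By contrast the dim Mt1 probe set ran from 3.226 to 74.61, stood at percentile 39, and was below 16 on 24 arrays. The name of the bright Mt1 probe set ends in _s_at, the manufacturer's mark for probes shared by more than 1 transcript, so signal from near-identical family members cannot be told apart there from Mt1 signal.

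Across the arrays the region labels matched the tissue: 25 of 27 region markers were highest in their own region. Mean correlation of an array with the others of its region was 0.973 to 0.983 and no 2 arrays correlated above 0.987. The 3′ to 5′ difference of Gapdh, a check of RNA integrity, lay between -0.42 and -0.40 (log2) in all 8 time groups, and that of beta-actin between 0.21 and 0.28. Each region was homogenised whole, so fewer cells of a type and less RNA per cell cannot be told apart. The 3 replicates of a group come from separate mice, and p-values measure the spread between their arrays. That spread is not between mice alone, since it also holds offsets that go with the replicate number. Within a region, 157 of the arrays correlated best with those of their own number. Deviations from different time groups of a region correlated at 0.13 on average for the same number and -0.07 for different numbers. Fits without the replicate number as a term leave these offsets in the spread. Differences were called at an adjusted p under 0.05 with limma and Benjamini-Hochberg adjustment over all tested probe sets.

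Before hypoxia the levels of Mt2 and of the bright Mt1 probe set differed between regions. Mt2 was lowest in the forebrain regions cortex and striatum and highest in the hindbrain, the bright Mt1 probe set followed a similar order, and Mt3 did not differ between any pair of regions by the test. Control intensity of the bright Mt1 probe set was 2741 ± 219 in pons and medulla (SD, n = 3) and 2724 ± 328 in cerebellum. It was 2439 ± 79.8 in midbrain, 2275 ± 177 in hippocampus, 2233 ± 119 in striatum and 2228 ± 133 in thalamus. Cortex was lowest at 1936 ± 116, with arrays of 1821, 1933 and 2053. The step from thalamus to cortex was the only one between neighbours in that order to pass the test (log2 gap 0.20, adjusted p = 0.0448), and 11 of the 21 pairs of regions differed, where 19.7% of all comparisons of a probe set between 2 regions passed. With the arrays of 1 replicate number left out, 4 to 8 pairs differed. These tests treat the regions as separate samples, although they share mice.

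Control Mt2 was 2321 ± 500 in cerebellum, 2025 ± 266 in pons and medulla, 1987 ± 344 in midbrain, 1771 ± 289 in hippocampus and 1708 ± 305 in thalamus (SD, n = 3). Striatum followed at 1302 ± 171 and cortex at 1183 ± 172. The step from thalamus to striatum passed the test (log2 gap 0.38, adjusted p = 0.0108), no other step between neighbours did, and 12 of 21 pairs differed. The 3 cortex arrays, 991.2, 1232 and 1325, lay below each cerebellum array, 1848, 2271 and 2844, the pair farthest apart (0.95 on the log2 scale, adjusted p = 1.58e-11).

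Control means of Mt3 lay between 2923 ± 382 in hippocampus and 2103 ± 269 in cerebellum (SD, n = 3). None of its 21 pairs passed the test, the smallest adjusted p being 0.152, and single arrays of a region could lie far apart: the 3 pons and medulla arrays were 1869, 3260 and 3287. The low one had replicate number 1, which was the lowest of that region in every time group. So were number 1 in cerebellum and number 3 in striatum, while number 3 in cortex was always the highest. Such offsets stay in the spread that the test between regions uses. Dim Mt1 signal lay between 21.96 ± 14.9 in striatum and 33.97 ± 3.41 in cerebellum, and 0 of its 21 pairs passed in limma (smallest adjusted p = 0.108).

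**Figure D1:**
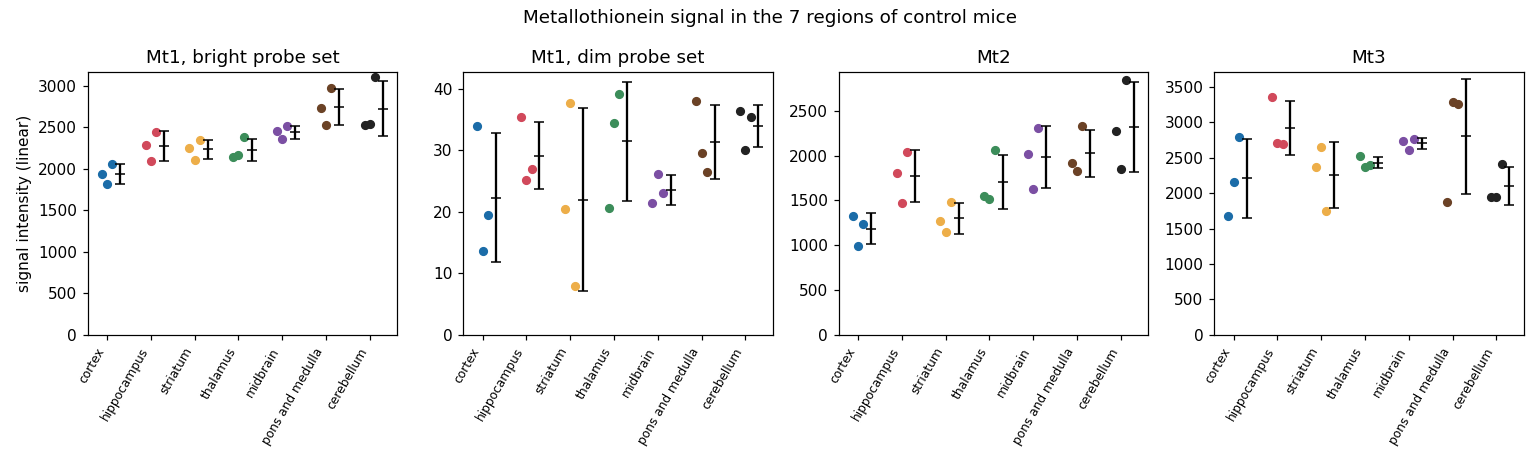
Signal intensity (linear axis from 0) of the 4 probe sets in the 3 control arrays of each of 7 regions; points are arrays, bars are the mean and SD. Mt2 rises from 1183 in cortex to 2321 in cerebellum, the bright Mt1 probe set from 1936 in cortex to 2741 in pons and medulla, and the arrays of Mt3 overlap across most regions.

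During hypoxia and re-oxygenation the probe sets separated in time. Mt2 and the bright Mt1 probe set were called above control from R1 to R6 and were highest at 3 to 6 h of re-oxygenation. Their step from H3 to R1 was not called in limma (0.17, adjusted p = 0.364 for Mt2 and 0.14, adjusted p = 0.129 for bright Mt1). These values do not place the start of the rise before or after the return to room air. The dim Mt1 probe set rose during the hypoxia itself and was back near or under its control level by R3. The split thus lay between the 2 probe sets of Mt1 and does not set Mt1 apart from Mt2 in time. The dim one stood at percentile 39 and was below 16 on 24 arrays. Which of the 2 follows the Mt1 transcript was not tested. Mt3 was called at no time point in the main fit, and was called lower at H1 and H3 with the replicate number as a term. To weigh the regions together, the 7 arrays that share a time group and a replicate number, 1 per region, were averaged on the log2 scale, giving 24 means, 3 per time group. Whether a shared number marks the same mouse is not stated.

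The averaged Mt2 level, given back on the intensity scale, was 1703, 1457 and 1977 in the 3 control means. It was 1596, 1594 and 1627 at H1 and 1908, 1830 and 2028 at H3, so both hypoxia groups overlapped the controls. At R1 it was 2215, 2003 and 2297, all above the highest control, as were those of 8.24% of probe sets. At R3 it was 2413, 2421 and 2573, and at R6 2332, 2234 and 2391, again above every control (6.32% and 5.16% of probe sets). Mt2 rose at R1 by 0.35 (log2, SE 0.08, adjusted p = 0.0106), at R3 by 0.53 (SE 0.08, adjusted p = 0.00208), or 1.45-fold, and at R6 by 0.44 (SE 0.08, adjusted p = 0.0413) in limma. Of all tested probe sets 1.65% rose at R1, 0.355% at R3 and 0.0266% at R6. The step from H3 to R3 also passed (0.36, adjusted p = 0.00759), where 3.48% of probe sets rose. The Mt2 call at R6 was lost in 27 of 42 alternatives, with changes of 0.33 to 0.55, and that at R1 without control number 2 (0.24, adjusted p = 0.0794) or R1 number 3 (0.31, adjusted p = 0.0603). Without control number 3 the Mt2 change at H3 was 0.28 with an adjusted p of 0.031, against 0.17 and 0.319 with it. With all arrays of 1 replicate number left out, which leaves 2 means per group, the Mt2 change at R3 was 0.55, 0.44 and 0.61 without number 1, 2 and 3, and only the last of these passed (adjusted p = 0.148, 0.103 and 0.0425).

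After R6 the Mt2 signal dropped below its starting level. The R12 means were 1207, 1203 and 1126, each under the lowest control mean of 1457, as was so for 4.31% of probe sets. The change from control was -0.52 (log2, SE 0.08, 95% interval -0.69 to -0.36). No other of the 45037 probe sets had a smaller p at R12, and its adjusted p of 0.0878 in limma missed the threshold. With all arrays kept, the same change passed after quantile normalization (adjusted p = 0.0297), with limma's trend and robust options (0.0119), among brighter probe sets only (0.0277) and with pseudocount 32 (0.0407). It also passed with some sets of arrays left out, controls among them: without the control mean numbered 2, the lowest in Mt2, the change was -0.63 with an adjusted p of 0.00136, without R3 number 3 it was -0.52 with 0.0396, and leaving out cortex or cerebellum gave 0.0409 or 0.0439. In most of the settings tried the R12 change was not called, among them pseudocount 1, median centring and each replicate number left out. From R6 to R12 Mt2 fell by 0.97 on the log2 scale (SE 0.08, adjusted p = 4.94e-06), again the lowest p of all probe sets, 0.22% of which fell. All 21 arrays at R12, from 852.3 to 1749, lay below all 21 arrays at R6, from 1759 to 3310, as did those of 3 of the 45037 probe sets in all (0.00666%). At R24 the means were 1386, 1534 and 1349, with a change of -0.26 (adjusted p = 0.763).

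The bright Mt1 probe set was called at the same 3 time points as Mt2, with smaller changes; the difference in size was not tested. Its control means were 2318, 2216 and 2522. The R1 means were 2852, 2738 and 2821, the R3 means 2933, 2964 and 3010, and the R6 means 2880, 2896 and 2960, with no overlap with the controls at any of the 3 time points. The same was so for 8.24%, 6.32% and 5.16% of probe sets at R1, R3 and R6, and 1.65%, 0.355% and 0.0266% were called as risers. It rose by 0.25 at R1 (log2, SE 0.04, adjusted p = 0.00128), by 0.34 at R3 (adjusted p = 0.000755) and by 0.31 at R6 (adjusted p = 0.0087) in limma, folds of 1.19, 1.26 and 1.24. The R6 call of this probe set was lost without control number 1 or 2 (adjusted p = 0.0734 and 0.0974) and without R6 number 2 or 3 (0.0628 and 0.0741), with changes of 0.27 to 0.31. With a whole replicate number left out, its R3 change was 0.30 to 0.38 and none of the 3 settings passed (adjusted p = 0.0589 to 0.143). At H3 the means were 2554, 2489 and 2576 and overlapped the controls (0.11, adjusted p = 0.225), but without the control mean numbered 3, the highest, the H3 change of this probe set was 0.16 with an adjusted p of 0.0429. Unlike Mt2 it stayed above control in the mean at R12 (0.14, 95% interval 0.05 to 0.23, adjusted p = 0.331), and at R24 it was at -0.02. From R6 to R12 its change was -0.17 (adjusted p = 0.0856).

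**Figure D2:**
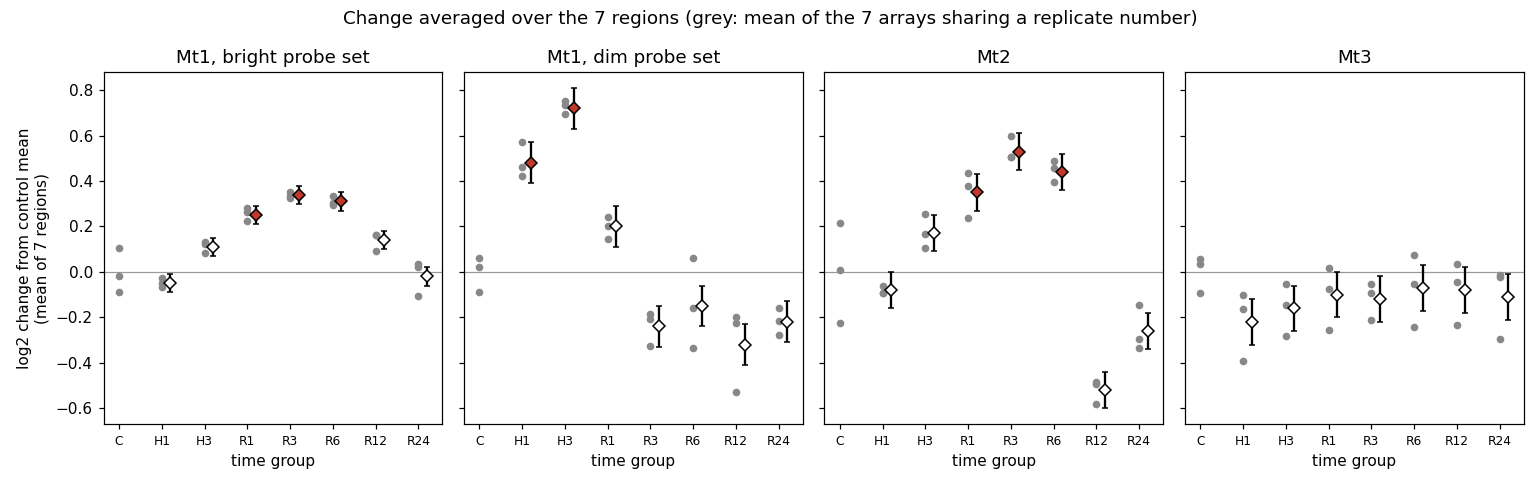
Change from the control mean (log2, average of 7 regions) at each time group for the 4 probe sets. Grey points are the 3 means of 7 arrays sharing a replicate number, diamonds are limma's changes with their SE, and red diamonds passed at an adjusted p under 0.05: Mt2 goes from 0.53 at R3 to -0.52 at R12, while the dim Mt1 probe set is highest at H3 with 0.72.

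For the dim Mt1 probe set the control means were 28.78, 27.41 and 24.22. At H1 they were 47.65, 42.7 and 41.17 and at H3 54.87, 52.97 and 55.98, all above the controls (6.09% and 7.49% of probe sets). It rose by 0.48 at H1 (log2, SE 0.09, adjusted p = 0.018) and by 0.72 at H3 (SE 0.09, adjusted p = 3.95e-05) in limma, where 0.0977% and 1.2% of probe sets rose. The H1 call was lost in 10 of 41 alternatives, over which its change was 0.36 to 0.72. It was lost when any of several sets was left out, with adjusted p = 0.0684 and 0.0892 without control number 2 or 3, 0.0813 and 0.072 without H1 number 1 or 2, and 0.1 and 0.0585 without hippocampus or midbrain. It was also lost without replicate number 1, 2 or 3 (adjusted p = 0.343, 0.0899 and 0.218) and with pseudocount 1 (0.109). The H3 call was kept in all 41 alternatives that could be computed. By R1 the means were 34.59, 33.31 and 31.25, and by R3 21.59, 18.08 and 21.06, each below the controls (7.96% of probe sets). The fall from H3 passed at R1 (-0.53, adjusted p = 0.0019) and at R3 (-0.96, adjusted p = 9.01e-07), where 1.09% and, from H3 to R3, 2.01% of probe sets fell. Means at R12 were 20.55, 13.64 and 21.22, not called against control (-0.32, adjusted p = 0.262).

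**Figure D3:**
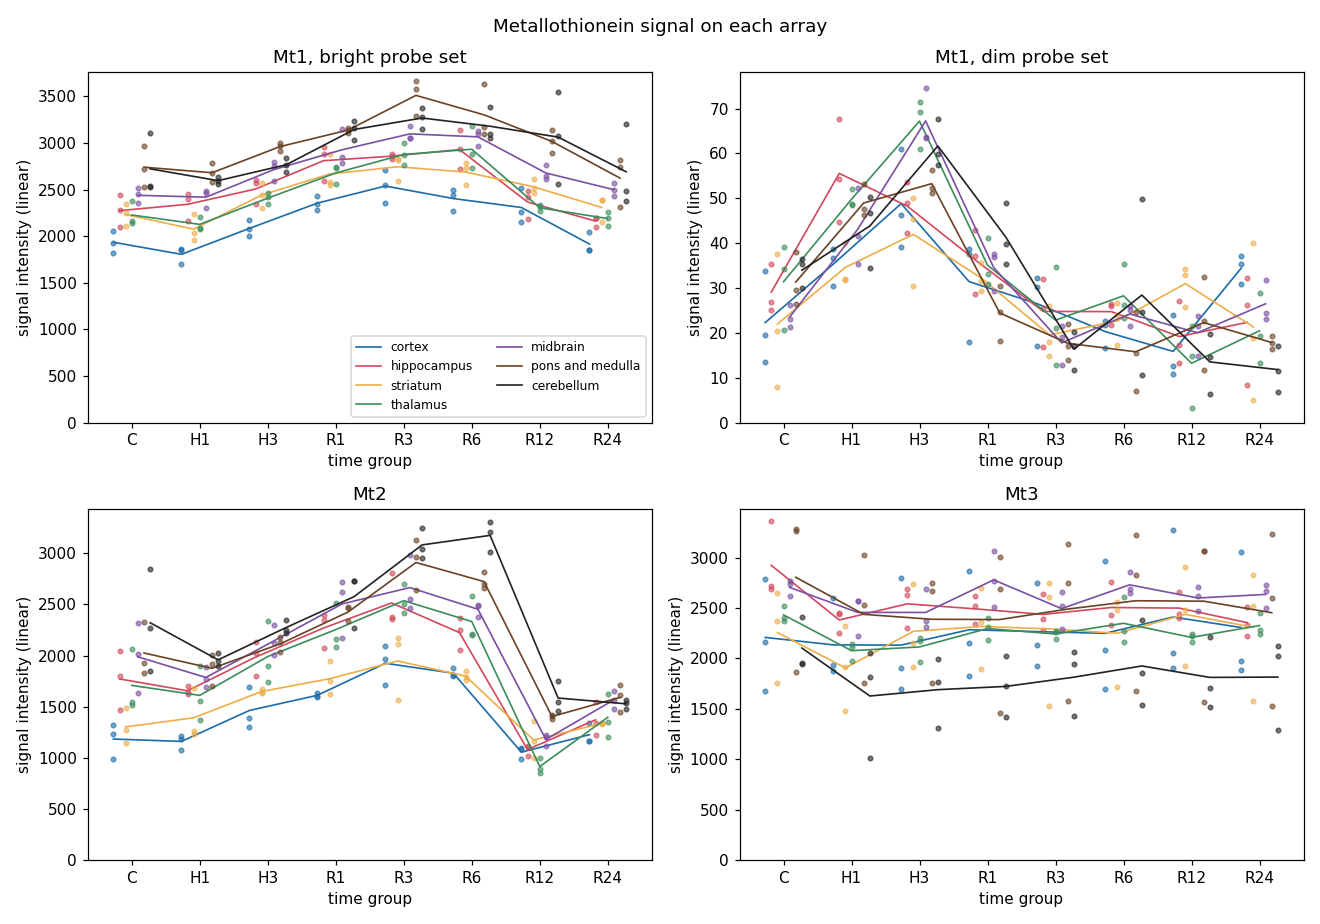
Signal intensity (linear axes from 0) of every array by time group for the 4 probe sets; points are arrays and lines join the means of 3 arrays of a region. Mt2 arrays at R12 (852.3 to 1749) lie below all arrays at R6, and the dim Mt1 probe set reaches 74.61 at H3. Mt3 changes at H1 are negative in every region (log2 -0.42 to -0.03), and none was called in a single region.

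Mt3 had control means of 2294, 2505 and 2544. Its averaged change was between -0.22 at H1 and -0.07 at R6 and passed at none of the 7 time points in limma. Unadjusted limma p was under 0.05 only at H1 (adjusted p = 0.639), where the means were 1854, 2177 and 2279, all below control, as for 4.61% of probe sets. The 95% intervals reached from -0.43 to -0.01 at H1 and from -0.33 to 0.09 at R3, so that a rise above 0.09 at R3 lay outside the interval. In Mt3 the mean with replicate number 1 was the lowest in all 8 time groups, at -0.28 to -0.14 (log2) from the average of the other 2 numbers in the same group, and in 30 of 56 single groups. For bright Mt1, dim Mt1 and Mt2 the mean with number 2 was the lowest in 5 of 8 time groups each. In single groups number 2 was lowest most often for dim Mt1 and Mt2, in 27 and 28 of 56. For bright Mt1 number 1 was lowest in 24 and number 2 in 22 of 56 single groups. What the number stands for is not given in the sources used here; with it as a term in the fit, Mt3 was called lower at H1 and H3, as given with the other settings.

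A test over all time points at once, without the replicate number as a term, gave the same division. It uses the same values as the tests of single time points, so it is no separate support. With that number as a term, Mt3 was called lower at H1 and H3 in the averages. The averaged time course varied for Mt2 (adjusted p = 2.06e-07), the dim Mt1 probe set (4.6e-07) and the bright one (8.18e-06) in limma's F-test, as for 11.7% of all probe sets, and the adjusted p of Mt3 was 0.773. Within single regions Mt2 passed in 7 of 7, against 0.38% of probe sets in pons and medulla, 0.6% in striatum, 0.684% in midbrain, 0.802% in hippocampus, 0.828% in cortex, 1.01% in thalamus and 2.41% in cerebellum. Dim Mt1 passed in 4, thalamus, midbrain, pons and medulla, and cerebellum, and the bright one in 4, cortex, hippocampus, thalamus and midbrain. Mt3 passed in 0 of 7 by limma, and its unadjusted p was under 0.05 in none, the lowest being 0.0975 in thalamus. With 1 replicate number left out, leaving 2 arrays per group, Mt2 passed in 0, 3 and 1 regions without number 1, 2 and 3, and each of the Mt1 probe sets in 0.

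Against control in a single region and time point, 2 of the 196 tests of the 4 probe sets passed. One was the dim Mt1 probe set in midbrain at H3, where the arrays went from 21.39, 22.99 and 26.2 in controls to 63.41, 63.73 and 74.61, a change of 1.07, against 0.16% of probe sets that rose there. That call held when each of the 24 midbrain arrays was left out in turn, and was lost in 3 of 34 alternatives. The other was Mt2 in cortex at R3, from 991.2, 1232 and 1325 to 1716, 1968 and 2089, against 0.00444% that rose, and it was lost in 21 of the 24 turns that left out 1 cortex array.

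Direction was shared more widely than the calls. At R3 all 3 Mt2 arrays lay above all 3 controls in 7 of 7 regions, with changes of 0.43 in midbrain to 0.70 in cortex, and the bright Mt1 probe set did so in 7 of 7, with 0.27 in cerebellum to 0.39 in cortex; 5.24% of probe sets by region did the same. At R6 Mt2 did so in 7 and bright Mt1 in 6 regions (4.53%). The dim Mt1 probe set did so at H3 in 6 regions (5.46%), with changes of 0.51 in hippocampus to 1.07 in midbrain. At R12 all 3 Mt2 arrays lay below all 3 controls in 5 regions (4.44%), with changes of -0.88 in thalamus to -0.15 in striatum. For Mt3 the change at H1 was negative in every region, from -0.42 in cerebellum to -0.03 in cortex, and none was called. The 7 regions are not independent here, since they share mice: the share of the spread within groups that was common to arrays of the same time group and number was 0.41 for Mt2, 0.19 for bright Mt1, 0.06 for Mt3 and 0.02 for dim Mt1. Thalamus Mt2 at R12 was 852.3, 892.8 and 995.2, against 1518, 1545 and 2060 in controls.

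Whether regions differed in these changes was tested directly as an interaction over all arrays, which treats regions of the same mouse as separate samples. None of the 4 probe sets passed at any of the 7 time points in limma, where 0.0165% of such tests over all probe sets passed. For Mt2 at R12 the unadjusted p was 3.52e-05 and the adjusted p 0.264, and at R24 they were 0.00184 and 1. For the dim Mt1 probe set unadjusted p was 0.00838 at R12 and 0.00308 at R24. At H3, R1, R3 and R6 no member had an unadjusted p under 0.05.

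The bright and the dim Mt1 probe set were compared within each array, as the change at the bright one minus that at the dim one, over the 9010 genes with more than 1 probe set of their own. Averaged over the regions the bright one fell behind by 0.53 at H1 (-0.53, SE 0.10, adjusted p = 0.0219) and by 0.61 at H3 (-0.61, SE 0.10, adjusted p = 0.000667), where 0.0777% and 1.79% of genes differed. At R1 they did not differ by the test (0.06, adjusted p = 0.884). At R3 the order had turned, with the bright one ahead by 0.58 (SE 0.10, adjusted p = 0.0144, 0.155% of genes). The dim probe set was near the floor at R3 (11.79 to 34.6, median 18.99), and with pseudocount 1 the bright one was ahead at 0 and the dim one at 1 of the 7 time points by the test. In the averages, the differences of 0.45 at R6 and 0.46 at R12 were not called (adjusted p = 0.175 and 0.362). Within regions only midbrain at H3 passed (-0.92, adjusted p = 0.0328, where 0.0777% of genes differed). With 1 replicate number left out, 1 time point passed with the dim probe set ahead and 0 with the bright one ahead, whichever number it was. The difference at H1, H3 and R3 had the same sign in all 7 regions.

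**Figure D4:**
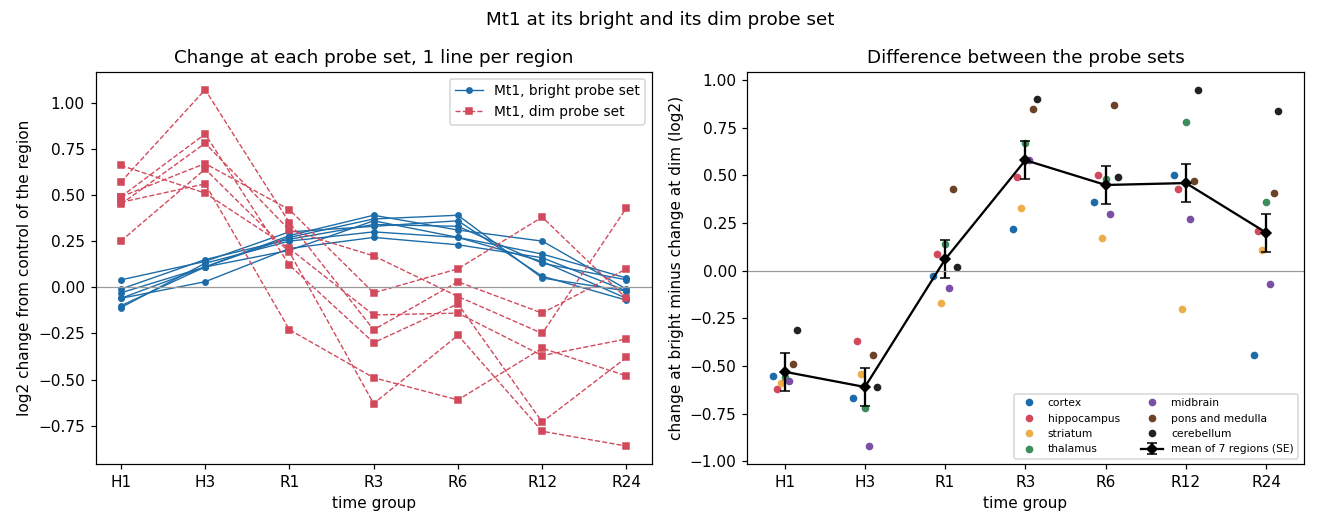
Left, change from the regional control (log2) at the bright and dim Mt1 probe sets, 1 line per region. Right, the change at the bright minus that at the dim probe set, by region and averaged (black, SE): it is -0.61 at H3 and 0.58 at R3.

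Over all arrays, which share region, time group and array scaling, the bright Mt1 probe set correlated with Mt2 at r = 0.74, and at 0.69 over the 56 group means after each region's mean was taken off. Its correlation with its own dim partner was -0.15 and -0.23 on the same 2 scales. Mt3 correlated with Mt2 at 0.01 and 0.08. These are descriptions and carry no test.

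Among bright probe sets naming 1 gene, the patterns most like Mt2 over the 56 centred group means were those of Tsc22d3 (r = 0.93), which encodes the glucocorticoid-induced leucine zipper GILZ, the galactosyltransferase gene B3galt5 (0.89) and Smim3 (0.89). Averaged Tsc22d3 was at 0.23 at R3 and 0.27 at R6 and at -0.52 at R12 (log2, SE 0.10, adjusted p = 0.392, 0.553 and 0.12), so it was called at none of these time points. Over all arrays without centring, the nearest to Mt2 were the triglyceride lipase gene Pnpla2 (0.80), Tsc22d3 (0.76) and the inositol phosphate kinase gene Itpk1 (0.74). Pnpla2 rose at R1 by 0.33 (adjusted p = 0.00312) and at R3 by 0.47 (adjusted p = 0.000958), and was at -0.08 at R12.

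The nearest to the bright Mt1 probe set over centred group means were Htra1 (0.92), a secreted serine protease, Pnpla2 (0.83) and Gjb6 (0.82), the astrocyte gap junction protein connexin 30. Htra1 was at 0.27 at R3 (SE 0.06, adjusted p = 0.0543) and at 0.27 at R6 (adjusted p = 0.178). Over the arrays the nearest were Tns3 (0.76), Pnpla2 (0.74) and Apod (0.74), the last an apolipoprotein. For Mt3 the nearest were Sympk (0.67), Ttyh1 (0.61) and Manf (0.61) over centred means, and Ap2a1 (0.76), Tmcc2 (0.76) and Gnai2 (0.74) over the arrays, and none of these 6 was called at any time point.

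**Figure D5:**
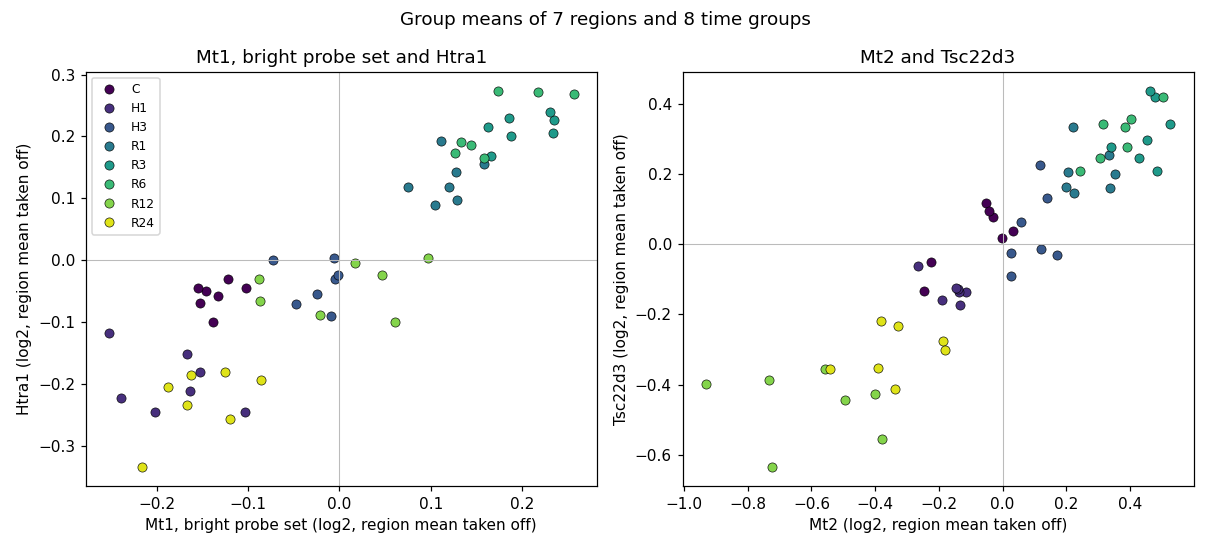
Each point is 1 of 56 group means (7 regions, 8 time groups in colour), log2 with the region mean taken off. Left, bright Mt1 against Htra1 (r = 0.92). Right, Mt2 against Tsc22d3 (r = 0.93), with all R12 points below 0 and all R3 and R6 points above 0 on both axes.

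Other genes that handle zinc and copper were mostly flat. Of 20 zinc transporters, 2 fell at H3 (2.16% of all probe sets), 1 rose at R1 and none passed at R3 in limma, with list medians of -0.02, -0.01 and -0.01 (log2) beside -0.01, -0.02 and 0.00 for all probe sets. The riser was Slc30a1, the plasma membrane zinc exporter, which like Mt1 is known to be switched on by MTF1: it was at 0.18 at H3 (adjusted p = 0.355), rose by 0.45 at R1 (SE 0.09, adjusted p = 0.00323) and was at 0.14 at R3 (adjusted p = 0.59). The genes that fell at H3 were those of 2 transporters that load zinc into the Golgi and secretory pathway, Slc30a7 (-0.20, SE 0.04, adjusted p = 0.00507) and Slc30a5 (-0.16, SE 0.03, adjusted p = 0.00908). The zinc importer Slc39a10 fell in 1 single region at R1 and was at -0.09 at R1 in the average (adjusted p = 0.22), and Slc30a9 was at 0.04 (adjusted p = 0.698).

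Of 8 genes for the metal-responsive factor and its targets, 1 fell at H3, and at R1 1 rose and 1 fell, where 3.83% of all probe sets fell. The gene that fell was that of the factor itself, Mtf1, at H3 (-0.20, SE 0.06, adjusted p = 0.0446) and R1 (-0.33, SE 0.06, adjusted p = 0.000957), and the riser was again Slc30a1. Mtf1 was at -0.09 at R3 (adjusted p = 0.599). Of 10 copper handling genes 2 fell at R1, the copper transporter gene Slc31a2 (-0.41, SE 0.08, adjusted p = 0.00361) and the copper ATPase gene Atp7a (-0.23, SE 0.05, adjusted p = 0.0138), and Sod1, the copper-zinc superoxide dismutase, was at 0.08 (adjusted p = 0.318).

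Several genes of pathways that are known to raise metallothioneins were called at H3 and R1. In limma Mt2 was called at R1 (0.35, adjusted p = 0.0106) and not at H3 (0.17, adjusted p = 0.319). The part of these pathways in the metallothionein changes was not tested. The gene lists were chosen with earlier results of these data known. Members such as Fkbp5, Tsc22d3, Sgk1, Nfkbia, Cdkn1a, Vegfa and Ddit4 were already published as raised by hypoxia on these arrays. The counts of risers beside the share of all probe sets are therefore descriptions, not a test of the pathways. Of 14 glucocorticoid-induced genes 6 rose at H3, 8 at R1, 2 at R3, 1 at R6 and none at R12 in limma, with medians of 0.19, 0.45, 0.11, 0.34 and -0.25 (log2), beside -0.01, -0.02, 0.00, -0.01 and 0.01 for all probe sets. Of all probe sets 1.2% rose at H3, 1.65% at R1, 0.355% at R3 and 0.0266% at R6. Sgk1, a kinase of ion transport, was at 1.41 at H3 (SE 0.26, adjusted p = 0.00299), -0.25 at R3 (adjusted p = 0.787) and 1.03 at R6 (adjusted p = 0.244). Ddit4, an inhibitor of mTOR that HIF also drives and that stands in both lists, rose by 1.53 at H3 (SE 0.10, adjusted p = 4.42e-08) and by 0.59 at R6 (adjusted p = 0.0413). Errfi1, a feedback inhibitor of EGF receptor signalling, rose by 0.82 at H3 (adjusted p = 1.46e-06), and Nfkbia, the inhibitor of NF-kappaB, by 0.66 (adjusted p = 2.29e-05). The 2 that rose at R3 were Cdkn1a, the cell cycle inhibitor p21, by 1.25 (SE 0.18, adjusted p = 0.00149), and Fkbp5, a co-chaperone of the glucocorticoid receptor, by 0.62 (SE 0.15, adjusted p = 0.0493).

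Of 14 HIF targets 4 rose at H3, 7 at R1, 1 at R3 and 2 at R6, with medians of 0.14, 0.25, 0.11 and 0.01 (log2), against the same 1.2%, 1.65%, 0.355% and 0.0266% of all probe sets and medians of -0.01, -0.02, 0.00 and -0.01. Vegfa, the vascular growth factor, rose by 0.74 at H3 (SE 0.09, adjusted p = 3.67e-05) and by 0.77 at R1 (adjusted p = 2.3e-05) and was at 0.14 at R3 (adjusted p = 0.616). Ankrd37 rose by 0.55 at H3 (adjusted p = 0.000879) and 0.64 at R1 (adjusted p = 0.000173), and Hk2, a hexokinase, by 0.25 at R1 (adjusted p = 0.0482). The riser at R3 was Bnip3, a mitochondrial cell death and mitophagy gene, by 0.25 (SE 0.04, adjusted p = 0.00479), and Ldha, lactate dehydrogenase A, was at 0.26 (adjusted p = 0.0842). Of 12 STAT3 and acute-phase genes 2 rose at H3 (1.2% of all probe sets), 3 at R1 (1.65%) and 2 at R3 (0.355%), with medians of -0.02, 0.01 and 0.14. Cebpd, a transcription factor of the acute-phase response, rose by 0.94 at H3 (SE 0.17, adjusted p = 0.00264), and its relative Cebpb by 0.50 at R1 (SE 0.08, adjusted p = 0.00065). The risers at R3 were Stat3 itself, by 0.32 (SE 0.05, adjusted p = 0.00696), and the oncostatin M receptor gene Osmr, by 0.41 (SE 0.07, adjusted p = 0.00583), and the astrocyte filament gene Gfap was at 0.15 at R3 (SE 0.13, adjusted p = 0.732).

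Markers of the cells that hold most Mt1 and Mt2 moved little. Of 12 astrocyte markers 0 rose and 0 fell at any of the 7 time points in limma, and their medians stayed between -0.02 and 0.06 (log2). Their summed intensity over the 21 arrays was 14250 to 19850, median 16040, in controls, 14360 to 20350, median 16850, at R3, and 15260 to 19990, median 16610, at R12. Aldoc, an astrocyte enzyme, was at 0.09 at R3 (adjusted p = 0.611). None of the 7 endothelial or 8 neuron markers measured passed at any time point, while the oligodendrocyte marker Opalin rose at H3 (0.44, adjusted p = 0.0445) and R1 and the microglia marker Tmem119 fell at R3 (-0.40, adjusted p = 0.000918) and R6. The part of these markers in the metallothionein changes was not tested. Slc30a5, Atp7a, Mtf1, Cdkn1a, Fkbp5, Bnip3, Stat3, Osmr and Tmem119 were named after their values were seen, to name the members behind small counts.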

How the data were processed

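Affymetrix whole-genome mouse arrays measured total RNA of 7 brain regions. The unit of the deposited table is a linear signal intensity per probe set and array, made by the authors; the labels name GCOS version 1.3, the published methods name GCRMA, and the trimmed mean of 125 on every array shows a global scaling. Depth does not apply to arrays: the 3 arrays per group limit the precision, and 23.3% to 30.2% of values per array lay below 16.

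Control probe sets (64) were left out and log2(intensity + 16) of the other 45037 was tested with limma 3.58.1 in R 4.3.3: each time point against control within a region (24 arrays, 8 groups), the 24 means over 7 regions, region pairs and interactions over all arrays, and the bright minus dim difference, all with Benjamini-Hochberg adjustment over every feature tested. Probe sets were named from GEO's platform annotation (34945 name 1 gene). Named genes were all members; up to 4 members of each gene list called in most regions at H3, R1 or R3 and 1 that was not; and the 3 genes nearest in pattern to each bright member. Members and lists were chosen with earlier results of these data known. Scripts were tested on simulated data. Other scalings, pseudocounts, filters, tests and left-out arrays were tried, some chosen after seeing the data. Promoter windows came from a RefSeq table of GRCm38.p6; all 3 genes matched, and the table's assembly is used for names, gene order and these windows only.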

Additional observations from a re-analysis of the deposited data

How the results depend on the processing

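In all, 212 settings were tried. The averaged changes against control that were called as reported kept their sign in every setting that gave them a value. So did the called single-region changes, dim Mt1 in midbrain at H3 and Mt2 in cortex at R3. The other single-region changes, region pairs, interactions and bright minus dim differences were compared as counts, so their signs were not followed. The cause of the differences listed here was not tested.

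Against control in single regions (49 tests per probe set), the bright Mt1 probe set rose in 0 as reported, 1 with pseudocount 32, 2 with quantile normalization, 2 among probe sets brighter than the median and 7 with limma's trend and robust options. Mt2 rose in 1 as reported, 0 with pseudocount 1, with median centring and with the methods' t-test, 3 among brighter probe sets and 4 with trend and robust options; it fell in 0 as reported, 1 with quantile normalization and among brighter probe sets, and 3 with trend and robust options. The dim Mt1 probe set rose in 1 as reported and 0 with the methods' t-test. Regions past the F-test went from 4 to 2 for dim Mt1 with pseudocount 1 and from 4 to 1 for bright Mt1 with median centring.

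Averaged over the regions (7 tests), dim Mt1 rose at 2 time points as reported and 1 with pseudocount 1. Mt2 fell at 0 as reported and at 1 with pseudocount 32, quantile normalization, brighter probe sets only, and trend and robust options. In the mean of region contrasts over all arrays, chosen after seeing the data, bright Mt1 rose at 5, dim Mt1 fell at 1 and Mt2 fell at 2. That limma fit, which treats regions as separate samples, called both Mt2 (0.17, adjusted p = 0.00365) and bright Mt1 (0.11, adjusted p = 0.00312) higher at H3. Between the Mt1 probe sets, the dim one rose more at 1 and the bright one at 0 averaged time points with pseudocount 1, against 2 and 1 as reported; with pseudocount 32 the bright one did at 2, and the single-region call of the dim one (1) went to 0. The filter on brightness removes the dim probe set, so it gave no value there.

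With 1 array, replicate number, mean or region left out in turn (single means and regions chosen after seeing the data), counts ran as follows: regions past the F-test 0 to 4 for bright Mt1, 0 to 5 for dim Mt1 and 0 to 7 for Mt2; single-region rises 0 to 1 for dim Mt1 and 0 to 2 for Mt2, and falls 0 to 1 for Mt2; averaged rises 0 to 4 for bright Mt1, 1 to 2 for dim Mt1 and 0 to 4 for Mt2, and averaged falls 0 to 1 for Mt2; control region pairs 4 to 8 for bright Mt1 and 0 to 2 for dim Mt1; and, between the Mt1 probe sets, whichever number was left out, dim more at 1 and bright more at 0 averaged time points and dim more in 0 single-region tests.

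Replicate numbers were not taken as pairs: arrays of the same region and number correlated in their deviations at 0.13 on average, but the lowest pair was at -0.22, although 157 arrays correlated best with their own number. With the number as a fixed block, Mt2 fell at 1 averaged time point (R12, adjusted p = 0.0373) and Mt3 at 2, H1 (-0.22, adjusted p = 0.0161) and H3 (-0.16, adjusted p = 0.0215), against 0 and 0 without the block. With the time point and number as a random block (consensus correlation 0.0369) no count of region pairs or interactions moved by over 1.5 times. Signals near 16 limit what the dim Mt1 probe set can show.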
